A study of Mus musculus with 15 samples.

Results

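The pixels described here are those of embryonic day 10 (E10) mouse embryo sections with the highest share of CD63 among their antibody tags. They were selected on a measured value. In each of 4 sections, tissue pixels were ranked by CD63 tags per 10000 antibody tags, and the top 10% were called CD63-high. This gave 575 CD63-high pixels among 5735 tissue pixels of the 4 sections, in a series with 17046 tissue pixels in 11 transcript libraries. All other tissue pixels of the same section, 5160 in all, were the comparison.

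CD63 is a tetraspanin, a small protein that crosses the membrane several times. It sits mainly in late endosomes, lysosomes and the vesicles that bud inside them, from which it reaches the cell surface and secreted exosomes, and it is a common marker of exosomes, activated platelets and pigment organelles. It binds integrin beta 1, the metalloproteinase inhibitor TIMP1 and, in endothelium, the VEGF receptor KDR. Most cell types make it, including fibroblasts, macrophages and endothelial cells.

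In the assay, DNA barcodes were flowed over a frozen embryo section through parallel channels in a first direction and then in a crossing direction, so that each crossing became a pixel with its own barcode pair. Transcripts and the tags of 22 antibodies were counted in the same pixels of 4 E10 sections, 2 with 50 µm pixels (called 50 µm section 1 and section 2), 1 with 25 µm and 1 with 10 µm. No genotype, strain, sex or treatment was given in the labels, which name only embryo tissue, E10 and the pixel width, and nothing says which embryo or which part of it a section covers. P-values therefore measure the spread between these 4 sections, which may share an embryo. A pixel is a small region that can hold several cells of different types or part of a cell. A lower transcript share can mean fewer cells of a type or less RNA per cell, and these cannot be told apart here.

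CD63-high pixels numbered 86 of 859 in 50 µm section 1, 84 of 839 in 50 µm section 2, 177 of 1766 in the 25 µm section and 228 of 2271 in the 10 µm section. Their transcripts summed to 727076, 671021, 117177 and 442228 counts in that order, against 10621013, 9963713, 1446312 and 4856968 counts in the other pixels. The 25 µm section was the shallowest: 1 count in its CD63-high sum is worth 8.53 CPM (counts scaled to a total of 1e6), against 1.38 to 2.26 CPM in the other 3. The sections use the same barcode grid, and 400 grid positions were tissue in all 4. Of the positions, 81 were CD63-high in at least 2 sections.

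The antibody shares that chose the pixels are given as a description. The median CD63 share per 10000 tags in CD63-high and other pixels was 781 and 430 in 50 µm section 1. It was 1099 and 561 in 50 µm section 2, 2203 and 951 in the 25 µm section, and 622 and 347 in the 10 µm section. The boundary ran through a continuous range of values. The last pixel inside and the first outside had 651.1 and 648.6, 971.0 and 970.1, 1927.6 and 1926.6, and 546.9 and 546.8 tags per 10000 in the same order. The share has the antibody total as its denominator, and that total was lower in CD63-high pixels in every section, at 0.733, 0.573, 0.758 and 0.752 of the median in other pixels. The median CD63 tag count itself was 151 against 112 in 50 µm section 1 and 316.5 against 312 in 50 µm section 2. It was 262 against 135 in the 25 µm section and 34 against 24 in the 10 µm section. In 50 µm section 2 the counts were thus nearly alike, and the smaller total set the difference in share.

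Among the other antibodies, expressed per 10000 tags without CD63, 3 were higher in CD63-high pixels in all 4 sections. These were CD45-PTPRC, the pan-leukocyte phosphatase, with ratios of 1.40, 1.13, 1.29 and 2.15, P2RY12, a purinergic receptor of microglia and platelets, with ratios of 1.14 to 1.40, and Ly-6A-E (Sca-1), with ratios of 1.05 to 1.23. CD201-EPCR, the endothelial protein C receptor, was lower in all 4, at 0.860 to 0.984. The other 17 antibodies differed in sign between sections. Among this many antibodies some would agree in sign over 4 sections by chance, and none of these differences was tested. The share of CD63-high pixels that were also in the top 10% for another antibody was 3.49% to 11.9% for EpCAM, an epithelial adhesion protein, 3.39% to 18.0% for the panendothelial antigen, 0% to 18.6% for MAdCAM-1 and 3.57% to 17.4% for Notch1. Each top set held 10% of the pixels, so unrelated sets would share about 10%, and the shares of all 4 antibodies fell below that in some sections and above it in others. The share of each of those antibodies' own top pixels that were CD63-high was the same, since both sets had the same size.

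CD63-high pixels lay in patches and along lines of the grid. A CD63-high pixel touched another CD63-high pixel in 84.9% to 91.7% of cases, whereas 23.0% to 26.4% of other pixels touched one. Moran's I of the log2 CD63 share, a measure of how alike neighbouring pixels are that is near 0 without spatial structure, was 0.530, 0.638, 0.651 and 0.369 in the order of sections above. In 50 µm section 1, a single barcode column (column 30) held 31 of the 86 CD63-high pixels, and these were 31 of its 33 tissue pixels. In the 10 µm section, column 33 held 29 of the 228. Columns accounted for 45.8%, 46.1%, 37.7% and 32.9% of the variance of the log2 share, against 17.5%, 17.9%, 19.0% and 9.52% for rows. A column is both a flow channel and a strip of tissue, and these cannot be told apart within a section. CD63-high pixels also lay more often at the tissue edge, where at least 1 of the 4 grid neighbours was not tissue: 54.7% against 26.5%, 44.0% against 24.5%, 20.3% against 13.0% and 44.3% against 18.6%.

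**Figure D1:**
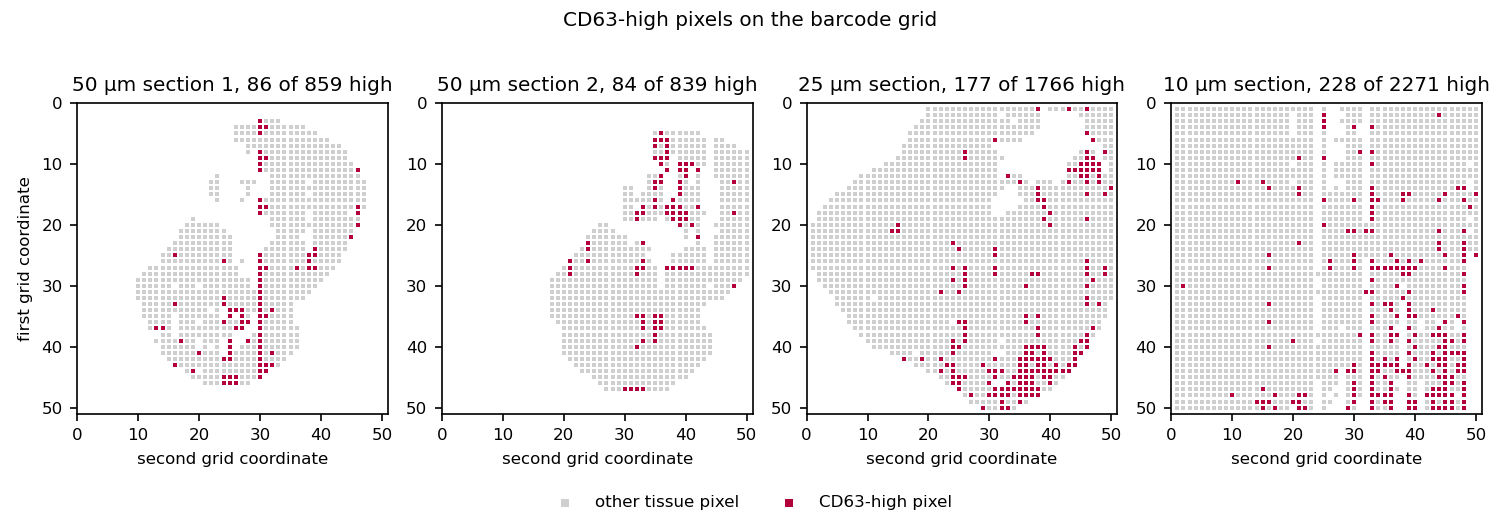
Each square is a tissue pixel at its grid coordinates (1 to 50 on each axis) in one of the 4 E10 sections, red where CD63-high and grey otherwise. Red pixels form patches, as at the lower edge of the 25 µm section, and vertical lines, as in column 30 of 50 µm section 1, where 31 of 33 tissue pixels are red.

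CD63-high pixels held fewer transcripts. The median count per pixel was 7474 against 11703 in 50 µm section 1, 6117 against 11343 in 50 µm section 2, 600 against 870 in the 25 µm section and 1486 against 2182 in the 10 µm section. All 4 ratios were below 1, with a geometric mean of 0.634 (exact sign-flip permutation test over 4 sections, two-sided p = 0.12, the smallest that 4 sections can give). Genes per pixel were lower as well, with a mean ratio of 0.730 (exact permutation p = 0.12). With pixels thinned to 500 counts each, which left out 59 CD63-high and 242 other pixels of the 25 µm section and 7 other pixels of the 10 µm section, the ratio was 0.989 (exact permutation p = 0.12). The share of transcripts from the mitochondrial genome was higher in all 4 sections, at 3.54% against 2.81%, 2.82% against 2.41%, 1.5% against 1.33% and 1.96% against 1.71% (mean ratio 1.17, exact permutation p = 0.12). The gap in depth depended on the ranking. With the CD63 share ranked within deciles of the antibody total, the mean log2 ratio of transcripts per pixel was -0.19, against -0.66 as reported. For genes per pixel it was -0.14, against -0.45, and for the mitochondrial share 0.21, against 0.23.

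Most connective tissue genes tested were higher in CD63-high pixels than in the other pixels of the section, and most neural progenitor genes were lower. Counts were summed over the CD63-high and over the other pixels of each section, and the 8 sums were compared with section as a block. Of 10392 genes tested, 385 (3.7%) passed an adjusted p of 0.05 in edgeR's quasi-likelihood test with Benjamini-Hochberg adjustment. Of all tested genes, 275 (2.65%) were higher and 110 (1.06%) lower. The direction was the same in all 4 sections for 227 of the 275 and 102 of the 110. The median log2 fold change was 0.92 over the higher genes, -0.74 over the lower genes and -0.02 over all tested genes. The call count moved with the choice of pixels: it was 122 when only other pixels within 2 grid steps of a CD63-high pixel were compared, 130 for pixels away from the tissue edge, and 199 when pixels were ranked within deciles of transcript depth. Without 50 µm section 2 it was 178, without the 25 µm section 231 and without the 10 µm section 167.

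When pixels were ranked by the CD63 tag count instead of the share, 1 gene was called and 608 had an unadjusted p under 0.05 in edgeR's quasi-likelihood test. The differences given below therefore belong to the share of CD63 among antibody tags. With ranks taken within deciles of the antibody total, so that high and other pixels had like antibody depth, 360 genes were called.

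The transcript of Cd63 itself (chr10:128900989-128912822, forward strand, GRCm38) was higher in CD63-high pixels. Its level was 182 CPM in CD63-high and 158 CPM in other pixels of 50 µm section 1 (ratio 1.15, 95% counting interval 0.958 to 1.38). In 50 µm section 2 it was 179 against 113 CPM (ratio 1.58, 1.3 to 1.91). In the 10 µm section it was 179 against 88.5 CPM (ratio 2.02, 1.57 to 2.57). In the 25 µm section it was 85.3 against 99.6 CPM, from 10 counts in the CD63-high pixels, and the ratio of 0.857 had an interval of 0.402 to 1.62, so that no difference was detectable at this depth. CD63-high pixels were thus above the others in 3 of 4 sections, and in 2 of them beyond counting error, the only error these intervals cover. Over the 4 sections the log2 fold change was 0.56 with a standard error (SE) of 0.15 (edgeR, adjusted p = 0.014). The transcript was no longer called without 50 µm section 2 (log2 fold change 0.48, edgeR adjusted p = 0.277), without the 10 µm section (0.38, 0.412), against near neighbours only (0.34, 0.349) or with DESeq2 (0.53, adjusted p = 0.264). A processed pseudogene, Cd63-ps, is counted in a row of its own, with 3 to 18 counts in the CD63-high sums, and reads of the 2 loci may have been shared out between them.

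The Cd63 transcript and the collagens were also followed across the whole range of the antibody share. Tissue pixels of each section were divided into 5 equal groups by CD63 share. From the lowest to the highest quintile, Cd63 was 159, 152, 161, 155 and 172 CPM in 50 µm section 1, a narrow range. It was 90.4, 112, 115, 128 and 170 CPM in 50 µm section 2, and 61.8, 93.6, 105, 114 and 131 CPM in the 25 µm section, where each quintile held 22 to 33 counts. In the 10 µm section it was 75.0, 92.1, 88.2, 73.1 and 158 CPM, with the highest value in the top quintile in all 4 sections. The sum of Col1a1, Col1a2 and Col3a1, the chains of fibrillar collagens I and III, went from 584 CPM in the lowest quintile to 1214 CPM in the highest in 50 µm section 1, and from 294 to 1008 CPM in 50 µm section 2. It went from 505 to 2004 CPM in the 25 µm section and from 526 to 1416 CPM in the 10 µm section. Over these 20 sums, the genes whose level was most like that of Cd63 among 4179 genes with a mean of at least 50 CPM were Pcolce, an enhancer of procollagen processing (Pearson's r = 0.899), Gpc3 (0.889), Apoe (0.886), Limch1 (0.882), Farp1 (0.872), Maged2 (0.868), Igf2 (0.867) and Pth1r (0.865). The correlations used log2 CPM centred within each section, so they follow changes over the quintiles and not differences between sections. The 5 sums of a section share its library and depth, so these correlations are a description.

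**Figure D2:**
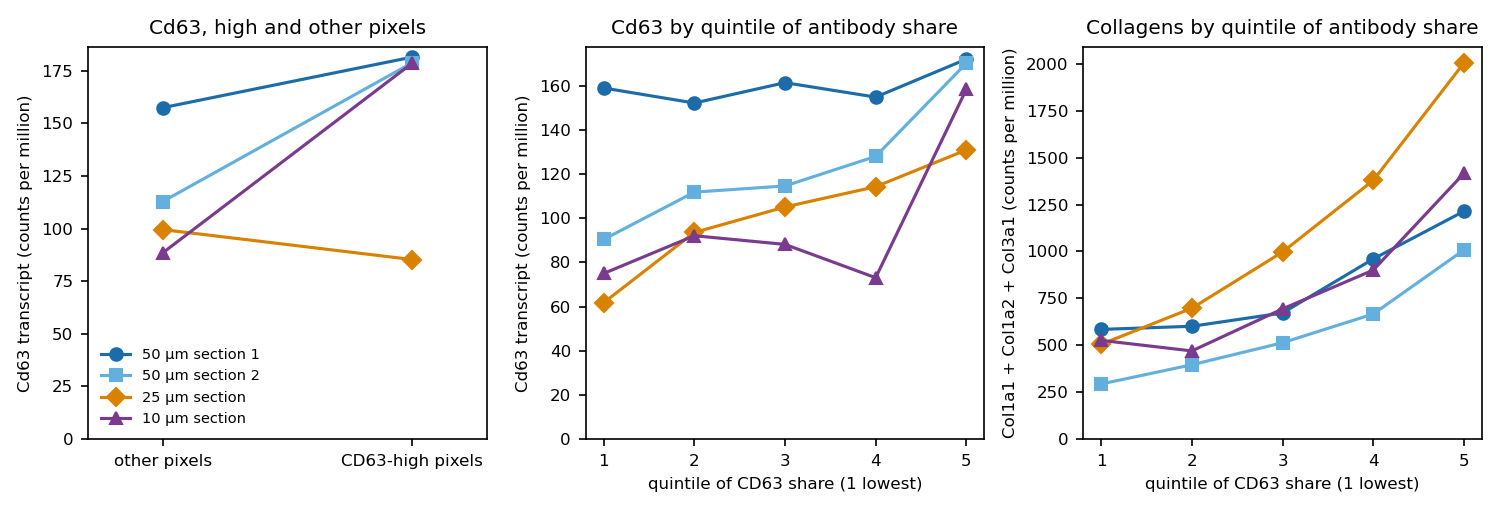
Left, Cd63 transcript level (CPM) in other and CD63-high pixels, 1 line per section. Middle and right, the levels (CPM) of Cd63 and of Col1a1, Col1a2 and Col3a1 together in quintiles of tissue pixels by antibody share. The collagen sum in the highest quintile is above that in the lowest in all 4 sections, with 2004 against 505 CPM in the 25 µm section.

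Among transcripts of tetraspanins and of the organelles in which CD63 resides, the list medians were near 0, while the shares of genes called higher ran from 0% to 18.2%, against 2.65% of all tested genes. Of 16 listed tetraspanins 12 were tested, and Cd63 was the 1 that was higher (8.33%); none was lower, and the list's median log2 fold change was 0.01. Cd81, another tetraspanin of exosomes, was at 124 to 191 CPM in CD63-high and 92.0 to 166 CPM in other pixels and was not called (log2 fold change 0.35, SE 0.14, edgeR adjusted p = 0.211). Cd9 was at 2.98 to 17.1 CPM in CD63-high pixels and was not called either (log2 fold change -0.74, SE 0.49, edgeR adjusted p = 0.601). Among 11 tested genes for binding partners and sorting factors of CD63, 2 were higher (18.2%), Itgb1 and Kdr, with a list median of 0.06. Itgb1, the integrin beta 1 chain, was at 289 against 219 CPM, 213 against 165 CPM, 247 against 127 CPM and 242 against 178 CPM in the order of sections above, higher in each (log2 fold change 0.51, SE 0.12, edgeR adjusted p = 0.00452). Without the 25 µm or the 10 µm section Itgb1 was not called.

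Lysosome and late endosome genes, 20 listed and 20 tested, had a median log2 fold change of 0.07. In this list 3 were higher (15%) and none lower, and without the filter on low counts or with DESeq2 none was called. The cathepsin gene Ctsb encodes a lysosomal protease (0.44, SE 0.13, edgeR adjusted p = 0.0338). Grn encodes progranulin, a lysosomal growth factor precursor (0.71, SE 0.21, edgeR adjusted p = 0.032), and Hexa a subunit of hexosaminidase (0.66, SE 0.20, edgeR adjusted p = 0.0494). Hexa and Ctsb lost their call when any section was left out, and Grn without the 25 µm or the 10 µm section. Of 15 tested genes for multivesicular bodies and exosome release, none was higher and 1 was lower (6.67%, against 1.06% of all tested genes). This was Tsg101, a subunit of the ESCRT-I complex that sorts cargo into these bodies, at 92.1 against 126 CPM, 67.1 against 85.4 CPM, 42.7 against 86.4 CPM and 47.5 against 106 CPM (log2 fold change -0.59, SE 0.17, edgeR adjusted p = 0.036). It was lower in each section and lost its call without 50 µm section 2, the 25 µm or the 10 µm section.

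The 12 genes with the largest increases among those called, higher in all 4 sections and at a mean of at least 20 CPM, were chosen from 202 candidates. They were Postn, Mrc1, Sec24d, Tagln, Acta2, Lama2, Flnc, Loxl1, Ddr2, Egfr, S100a13 and Dab2, with log2 fold changes of 1.40 to 2.14. Postn (chr3:54361109-54391037, forward strand, GRCm38) encodes periostin, a matrix protein of heart cushions, periosteum and dermis. It was at 39.9 against 12.2 CPM, 25.3 against 4.42 CPM, 51.2 against 18.0 CPM and 56.5 against 9.47 CPM in the order of sections above. Every CD63-high value of Postn exceeded every value in other pixels, with a 4.42-fold increase (log2 fold change 2.14, SE 0.30, edgeR adjusted p = 5.83e-07). Sec24d, a coat protein of vesicles that carry procollagen out of the endoplasmic reticulum, was at 31.3 to 42.7 CPM against 9.13 to 15.9 CPM, again without overlap (1.75, SE 0.30, edgeR adjusted p = 3.59e-05). Loxl1, which cross-links elastin, was at 13.8, 23.8, 59.7 and 38.4 CPM against 9.79, 8.73, 8.30 and 11.9 CPM (1.48, SE 0.34, edgeR adjusted p = 0.00319). Ddr2, a collagen receptor of mesenchymal cells, was at 57.8 to 95.4 CPM against 24.2 to 55.3 CPM (1.47, SE 0.20, edgeR adjusted p = 4.35e-07). Dab2, a clathrin adaptor, was at 68.8 to 133 CPM against 27.2 to 46.7 CPM (1.40, SE 0.19, edgeR adjusted p = 2.06e-07). Of the 12 genes, 12 remained called without 50 µm section 1, 9 without 50 µm section 2 (not Flnc, Loxl1 or Egfr) and 11 without the 25 µm section (not Loxl1). Without the 10 µm section 8 did, and Mrc1, Acta2, Loxl1 and S100a13 did not. All 12 kept their direction in each of these fits.

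**Figure D3:**
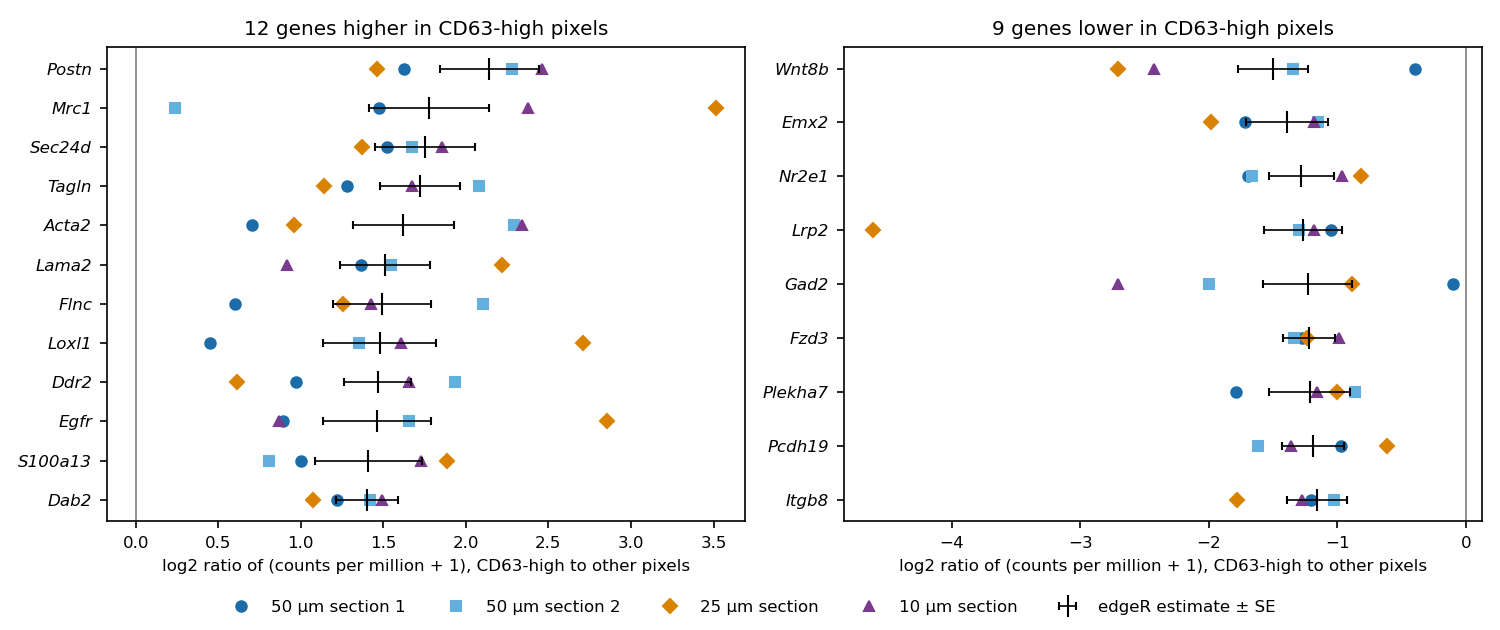
Each row is a gene with the log2 ratio of (CPM + 1) between CD63-high and other pixels in each section (points) and the edgeR log2 fold change with its SE (black). By the choice of genes, all 12 on the left have all points above 0 and all 9 on the right below 0. Lrp2 and Wnt8b had no count in the CD63-high pixels of the 25 µm section, so the added 1 sets how far those 2 points lie from 0.

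Connective tissue genes were higher in CD63-high pixels. All 12 listed genes were tested, 10 were higher (83.3%, against 2.65% of all tested genes) and none lower. The median log2 fold change was 1.17, against -0.02 over all tested genes. The 10 were Col1a1, Col1a2, Col3a1, Col5a1, Col5a2, Dcn, Lum, Pdgfra, Postn and Prrx1. Col3a1 (collagen III) was at 836 against 446 CPM, 738 against 264 CPM, 1092 against 465 CPM and 1054 against 433 CPM in the order of sections above. The 4 CD63-high values all lay above the 4 values of other pixels (log2 fold change 1.25, SE 0.09, edgeR adjusted p = 1.63e-18). Col1a1 (collagen I, chr11:94936224-94953042, forward strand, GRCm38) was at 102 against 61.6 CPM, 146 against 49.7 CPM, 341 against 129 CPM and 226 against 72.5 CPM (1.36, SE 0.15, edgeR adjusted p = 5.15e-10). It was higher within each section, while the ranges overlapped between sections. Col1a2 was higher in each section too (1.14, SE 0.10, edgeR adjusted p = 2.02e-13). Pdgfra, a growth factor receptor that marks mesenchyme, was at 67.4 to 128 CPM against 26.6 to 60.8 CPM (1.22, SE 0.18, edgeR adjusted p = 3.10e-06). The small proteoglycans of collagen fibrils Lum (1.21, SE 0.18, edgeR adjusted p = 2.52e-06) and Dcn (1.31, SE 0.31, edgeR adjusted p = 0.00413) were higher in all 4 sections. Fn1 (fibronectin) and Twist1 were the listed genes that were not called, with log2 fold changes of 0.18 and 0.59. Summed over the list, the level was 2070 against 1321 CPM, 2159 against 912 CPM, 2970 against 1554 CPM and 2558 against 1208 CPM.

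The connective tissue list was also counted with the pixels chosen in other ways. Of the 12 genes, 7 were called against near neighbours only (median log2 fold change 0.79) and 6 in pixels away from the edge (0.97). With the CD63 share divided by the median of its barcode column and then of its row, 8 were called (0.96). When ranks were taken within deciles of transcript depth, 7 were called (0.89). Without 1 section in turn 7 to 9 were called: Col5a1 lost its call when any section was left out, Prrx1 without 50 µm section 2, the 25 µm or the 10 µm section, and Dcn without 50 µm section 2. Ranked by CD63 tag count, none was called, with a median of 0.11. In limma on pixel means 3 were called (0.98).

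Basement membrane genes, 9 listed and tested, included 6 that were higher (66.7%, against 2.65% of all tested genes) and none that were lower. Their median was 0.68. In limma on pixel means none was called (0.54). The collagen IV chains Col4a1 (0.68, SE 0.10, edgeR adjusted p = 5.58e-07) and Col4a2 (0.69, SE 0.13, edgeR adjusted p = 0.000173) were higher in all 4 sections. Col4a1 was at 498 against 310 CPM, 590 against 345 CPM, 469 against 423 CPM and 617 against 357 CPM in the order of sections above. The gap was narrowest in the 25 µm section. The laminin gene Lamb1 was at 87.9 to 196 CPM against 39.6 to 111 CPM (1.06, SE 0.16, edgeR adjusted p = 4.80e-06). Lama1, Nid1 (nidogen) and Sparc (osteonectin) were the remaining 3; Lama1 was not called without the 25 µm or the 10 µm section, nor Nid1 without 50 µm section 2. Among the cartilage and sclerotome genes, 3 of 8 were tested and 2 were higher (66.7%). These were Col9a1 (1.3, SE 0.22, edgeR adjusted p = 3.59e-05) and Col2a1 (0.44, SE 0.12, edgeR adjusted p = 0.0421). Col2a1 was lower than in other pixels in 50 µm section 1, at 223 against 259 CPM, and was called only with 50 µm section 2, the 25 µm and the 10 µm section all in the fit. In the meninges and dermis list, 7 of 9 were tested and 2 were higher (28.6%). These were the forkhead factors of mesenchyme Foxc1 (1.13, SE 0.18, edgeR adjusted p = 1.02e-05) and Foxd1 (1.08, SE 0.21, edgeR adjusted p = 0.000276). The list's median was 0.22.

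The contractile genes Tagln and Acta2 were higher in CD63-high pixels. Of 8 listed smooth muscle and pericyte genes, 4 passed the filter on low counts, which can keep a gene for its level in CD63-high pixels alone. Tagln, Acta2, Des and Pdgfrb were called, but with all 8 genes tested, without the filter or with DESeq2, the calls were Tagln and Acta2 alone. Away from the edge, without the fullest barcode column and with ranks within transcript depth, only Tagln was called. Acta2 then had log2 fold changes of 1.52, 1.56 and 0.93. Tagln, which encodes the actin-binding protein transgelin, was at 72.9 against 29.5 CPM, 80.5 against 18.3 CPM, 25.6 against 11.1 CPM and 43.0 against 12.8 CPM (1.72, SE 0.24, edgeR adjusted p = 5.83e-07). It was higher in each section, with overlap between sections. Acta2, smooth muscle actin, was at 114 against 69.8 CPM, 149 against 29.6 CPM, 93.9 against 47.7 CPM and 52.0 against 9.47 CPM (1.62, SE 0.31, edgeR adjusted p = 0.0153). Its call was lost without the 10 µm section, that of Pdgfrb without 50 µm section 2, the 25 µm or the 10 µm section, and that of Des when any section was left out. The mature smooth muscle markers Myh11 and Cnn1 did not pass the filter, with 2 to 5 and 0 to 12 counts in the CD63-high sums. Outside the list, the calponin Cnn2 (1.31, SE 0.10, edgeR adjusted p = 1.17e-15), the myosin light chain Myl9 (1.37, SE 0.17, edgeR adjusted p = 1.62e-06) and the galectin Lgals1 (1.35, SE 0.10, edgeR adjusted p = 1.22e-16) were higher in all 4 sections. These 3 were picked after their values were seen. Cnn2 was at 279 against 153 CPM, 635 against 224 CPM, 649 against 286 CPM and 764 against 269 CPM. Lgals1 was at 340 against 171 CPM, 449 against 190 CPM, 580 against 187 CPM and 762 against 266 CPM, and its 4 CD63-high values all exceeded the 4 of other pixels.

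Many contractile genes carry a CArG box, the 10-base site bound by serum response factor, close to their start. The motif was chosen after the called genes had been seen and was searched in the RefSeq promoters (build GRCm38.p6, 250 bases before to 50 after a start site). The pattern reads the same on both strands, and no other motif was searched. Of the 193 higher genes with a promoter in the table, 8 held it (4.15%): Actg1, Cnn2, Glipr2, Igf2, Lama2, Myl6, Myl9 and Rhoj. It was in 2 of 83 lower genes (2.41%), 122 of 7462 tested genes (1.63%) and 488 of 27025 genes in the table (1.81%). Tagln and Acta2, also called higher, were not among the 8 matches, which cover only genes with a promoter in the table. A match is a description of these letters and not a bound site. The 250 bases before the start site are printed for Cnn2 and Myl9, called contractile genes, and for Lama2, the named laminin gene, with the CArG box in capitals. They lie at chr10:79988350-79988599 (forward strand), chr2:156775214-156775463 (forward strand) and chr10:27616943-27617192 (reverse strand). The match begins 56, 161 and 39 bases before the start used. The bases printed for Lama2 lie wholly inside the gene's GENCODE M21 span (chr10:26980036-27619758, reverse strand), so they precede a start other than the outermost.
Cnn2: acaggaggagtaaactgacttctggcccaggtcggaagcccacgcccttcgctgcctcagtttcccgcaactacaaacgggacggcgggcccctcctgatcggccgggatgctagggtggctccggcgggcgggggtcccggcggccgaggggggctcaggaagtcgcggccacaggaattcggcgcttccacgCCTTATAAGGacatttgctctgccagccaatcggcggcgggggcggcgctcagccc
Myl9: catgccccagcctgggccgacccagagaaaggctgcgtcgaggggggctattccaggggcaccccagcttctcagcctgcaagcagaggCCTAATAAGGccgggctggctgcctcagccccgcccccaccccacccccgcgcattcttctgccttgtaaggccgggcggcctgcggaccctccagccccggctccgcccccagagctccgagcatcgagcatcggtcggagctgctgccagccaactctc
Lama2: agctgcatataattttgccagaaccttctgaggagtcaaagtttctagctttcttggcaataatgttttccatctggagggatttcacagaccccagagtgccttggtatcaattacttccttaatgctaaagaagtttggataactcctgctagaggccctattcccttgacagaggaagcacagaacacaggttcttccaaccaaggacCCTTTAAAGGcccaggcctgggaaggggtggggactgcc

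Markers of other cell types that a pixel could hold were examined in the same way. Of 12 macrophage genes, 4 passed the filter on low counts and 2 were higher (50%, against 2.65% of all tested genes). The median log2 fold change of the 4 was 1.24. With all 12 tested, 2 were called, and the median was 0.56 without the filter and 0.58 with DESeq2. Mrc1, the mannose receptor, was at 19.3 against 6.31 CPM, 11.9 against 9.94 CPM, 34.1 against 2.07 CPM and 74.6 against 13.6 CPM (1.78, SE 0.36, edgeR adjusted p = 0.000957). The difference was smallest in 50 µm section 2, and the call was lost without the 10 µm section. Csf1r, the growth factor receptor of macrophages, was at 14.9 to 38.4 CPM against 6.87 to 11.8 CPM (1.45, SE 0.35, edgeR adjusted p = 0.00581) and lost its call without the 10 µm section as well. The summed macrophage level was 99.8 to 265 CPM in CD63-high and 70.4 to 95.1 CPM in other pixels, from 22 to 117 counts. Ptprc, the gene of the CD45 antibody, which was higher in all 4 sections, gave 2 to 5 counts per CD63-high sum and was not tested.

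Of 9 endothelial genes, 8 were tested and 1 was higher (12.5%, against 2.65% of all tested genes). This was Kdr (0.65, SE 0.20, edgeR adjusted p = 0.0489). The list median was 0.60, with all 8 values above 0. Kdr lost its call without 50 µm section 1, 50 µm section 2 or the 10 µm section. It was at 34.1 against 64.3 CPM in the 25 µm section, the 1 section where it was lower. Pecam1 was at 12.4 against 16.5 CPM, 31.3 against 19.3 CPM, 68.3 against 25.6 CPM and 43.0 against 14.8 CPM and was not called (0.81, SE 0.30, edgeR adjusted p = 0.133). The endothelial sum was 247 to 337 CPM in CD63-high and 163 to 256 CPM in other pixels. Red cell genes, 9 listed and tested, included 2 that were higher (22.2%). These were the adult beta globins Hbb-bs (0.55, SE 0.13, edgeR adjusted p = 0.0036) and Hbb-bt (0.44, SE 0.10, edgeR adjusted p = 0.00261). Both lost their call without 50 µm section 2 or the 10 µm section. Globin genes are near-identical copies, so their reads may be split unevenly between them. The embryonic globin Hbb-y was at 11281 against 9948 CPM, 9559 against 5429 CPM, 7519 against 7466 CPM and 14309 against 7687 CPM and was not called (0.51, SE 0.22, edgeR adjusted p = 0.502).

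Heart muscle genes were higher in part of the sections. Of 8 listed, 7 were tested and 3 were higher (42.9%, against 2.65% of all tested genes). These were Myh6 (1.14, SE 0.26, edgeR adjusted p = 0.0115), Tnni1 (1.05, SE 0.30, edgeR adjusted p = 0.0356) and Tnnt2 (0.50, SE 0.12, edgeR adjusted p = 0.00737). The list median was 1.14. The summed list was at 1411 against 719 CPM and 1717 against 534 CPM in the 50 µm sections, but at 998 against 1245 CPM in the 25 µm section. In the 10 µm section it was at 27.1 against 13.4 CPM, from 12 counts in CD63-high pixels, and Myh6, Tnni1 and Tnnt2 had no count there. None of the 7 was called without 50 µm section 2, and 6 were called without the 25 µm section. A single gene was called without 50 µm section 1, and likewise without the 10 µm section. None was called in pixels away from the edge, where the list median was 1.04. None was called either after the column and row correction, with a median of 0.23. Likewise none was called without the barcode column that held the most CD63-high pixels in each section, with a median of 0.65. Of the 12 genes for the lateral plate, coelomic lining and kidney, 4 passed the filter on low counts. This filter can keep a gene for its level in CD63-high pixels alone. The heart and coelom factors Gata6 (1.84, SE 0.47, edgeR adjusted p = 0.0102) and Tbx18 (1.20, SE 0.30, edgeR adjusted p = 0.00794) were the 2 that were higher. Of the 22 alternative fits, Gata6 was in 14 and Tbx18 in 22. Both lost their call without 50 µm section 2, and Tbx18 also without the 10 µm section.

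In several further lists no more than 2 genes passed the filter on low counts. Of 11 pigment and eye genes 1 was tested, Pmel, which forms the fibrils of pigment organelles. It was at 51.2 against 13.1 CPM in the 25 µm section and 362 against 88.5 CPM in the 10 µm section (1.87, SE 0.29, edgeR adjusted p = 7.69e-06). In the 50 µm sections it had no count in CD63-high pixels, and 7 and 10 counts in other pixels. The tyrosinase gene Tyr and Dct gave 9 and 47 counts in the CD63-high pixels of the 10 µm section and 0 to 3 in the other sections. Of 8 platelet genes 2 were tested and none was called. Of 10 epithelial genes 2 were tested and none was called.

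Wnt8b, Emx2 and Nr2e1 were lower in CD63-high pixels. Of the 12 with the largest decreases among 97 candidates, 9 are described: Wnt8b, Emx2, Nr2e1, Lrp2, Gad2, Fzd3, Plekha7, Pcdh19 and Itgb8, with log2 fold changes of -1.50 to -1.16. Wnt8b (chr19:44493472-44514273, forward strand, GRCm38) encodes a Wnt ligand of the dorsal forebrain. It was at 22.0 against 29.3 CPM, 16.4 against 43.2 CPM and 33.9 against 187 CPM in the 50 µm sections 1 and 2 and the 10 µm section (-1.50, SE 0.27, edgeR adjusted p = 0.000187). In the 25 µm section it had no count in CD63-high and 8 counts in other pixels. Its call was lost without the 10 µm section, as was that of Emx2. Emx2, a homeobox factor of the cortex primordium, was at 5.50 to 31.7 CPM against 17.8 to 72.9 CPM (-1.39, SE 0.32, edgeR adjusted p = 0.003). Nr2e1, a nuclear receptor of forebrain progenitors, was at 8.25 to 49.7 CPM against 28.9 to 98.0 CPM (-1.28, SE 0.26, edgeR adjusted p = 0.000452). Fzd3, a Wnt receptor, was lower in each section, at 33.0 against 81.3 CPM, 47.7 against 122 CPM, 25.6 against 61.5 CPM and 31.7 against 63.6 CPM (-1.22, SE 0.20, edgeR adjusted p = 1.78e-05). Of the 9 genes, 8 remained called without 50 µm section 1 (not Plekha7), 6 without 50 µm section 2 (not Lrp2, Gad2 or Plekha7) and 8 without the 25 µm section (not Gad2). Without the 10 µm section 4 did, and Wnt8b, Emx2, Lrp2, Gad2 and Plekha7 did not. Against near neighbours 2 of the 8 tested were called, Fzd3 and Itgb8, with a median log2 fold change of -1.01 and all 8 below 0. After the column and row correction 1 of the 9 was called, Nr2e1, with a median of -0.52 and all 9 below 0. As reported, the median of the 9 was -1.23. In limma on pixel means none of the 9 was called (median -1.19), nor was any when ranked by CD63 tag count (-0.05).

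Neural progenitor genes, 9 listed and tested, included 6 that were lower (66.7%, against 1.06% of all tested genes) and none that were higher. Their median was -0.69. Pax6, a homeobox factor of brain and eye progenitors, was at 41.3 against 83.2 CPM, 62.6 against 216 CPM, 59.7 against 192 CPM and 140 against 212 CPM in the order of sections above. It was lower in each section (-1.15, SE 0.17, edgeR adjusted p = 3.56e-06). Sox2, which maintains neural progenitors, was at 104 to 161 CPM in CD63-high pixels, below the 196 to 250 CPM of other pixels in all 4 sections (-0.80, SE 0.13, edgeR adjusted p = 2.37e-05). Hes5, a target of Notch signalling (-0.94, SE 0.18, edgeR adjusted p = 0.000166), and Fabp7, a fatty acid-binding protein of radial glia (-0.69, SE 0.12, edgeR adjusted p = 8.01e-05), were lower in each section, as were Sox1 and Msi1. Vim, Nes and Hes1, which progenitors share with mesenchyme, had log2 fold changes of -0.08, -0.01 and 0.12 and were not called. The list's summed level, which includes Vim, was 4050 against 4010 CPM in 50 µm section 1 and 2202 against 3135 CPM in the 25 µm section. Of the 9 genes, 4 were called against near neighbours (median -0.61), 2 away from the edge (-0.55) and 5 after the column and row correction (-0.40). In limma on pixel means 1 was called (-0.67). Without 50 µm section 2 there were 3 (-0.58), and Hes5, Sox1 and Msi1 lost their call. Sox1 also lost it without the 25 µm or the 10 µm section, and Msi1 when any section was left out.

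Of 9 neuronal genes, all tested, none was called, with a median of -0.19. Tubb3, the neuronal tubulin, was at 641 against 474 CPM in 50 µm section 1, higher in CD63-high pixels, and at 331 against 511 CPM, 196 against 201 CPM and 124 against 215 CPM in the other 3 (-0.19, SE 0.22, edgeR adjusted p = 0.853). The summed neuronal level showed the same split, with 3480 against 2526 CPM in 50 µm section 1 and 531 against 944 CPM in the 10 µm section. Of 5 tested neural crest genes, Ets1 was higher and Ednrb lower. Of 5 tested roof plate genes, Msx1 was higher (0.68, SE 0.15, edgeR adjusted p = 0.00164) and Rspo3 lower (-1.13, SE 0.27, edgeR adjusted p = 0.00442). The somite factor Pax3 was lower (-1.09, SE 0.27, edgeR adjusted p = 0.00786), with the opposite order in the 10 µm section, at 2.26 against 0.618 CPM. Among these 5 genes, leaving out 50 µm section 2 ended the calls of Ets1, Ednrb and Pax3, the 25 µm section those of Ets1, Msx1 and Pax3, the 10 µm section those of Ets1, Ednrb, Msx1 and Rspo3, and 50 µm section 1 that of Ednrb.

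**Figure D4:**
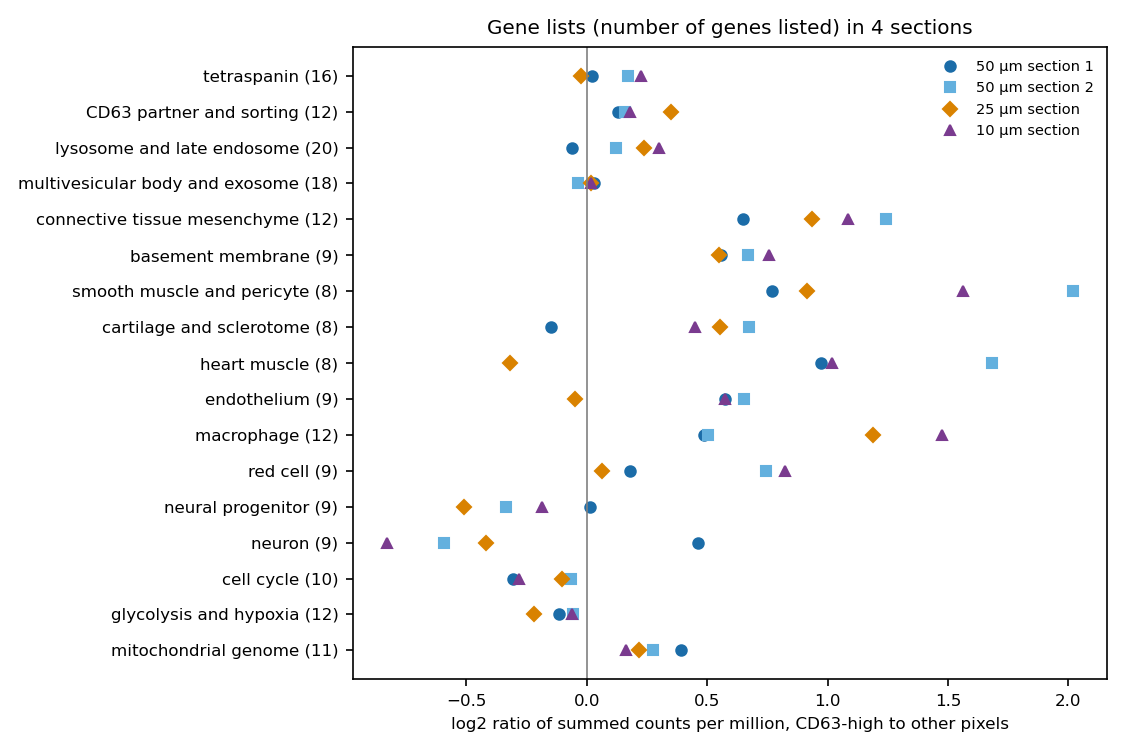
Each point is the log2 ratio, CD63-high to other pixels, of the CPM summed over all genes of a list in 1 section. Connective tissue, basement membrane, smooth muscle and macrophage lists lie above 0 in all 4 sections, heart muscle and endothelium lie below 0 in the 25 µm section, and tetraspanin and multivesicular body lists lie near 0.

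Genes of the mitochondrial genome were higher along with the connective tissue genes. Of 11, all tested, 10 were higher (90.9%, against 2.65% of all tested genes), with a median of 0.33. The summed level was 35694 against 27246 CPM, 29676 against 24495 CPM, 15370 against 13232 CPM and 18929 against 16919 CPM. Without the filter on low counts 1 gene of the list was called (median 0.21), and against near neighbours 3 (0.27). The calls numbered 8 without 50 µm section 1, 4 without 50 µm section 2, 6 without the 25 µm section and 6 without the 10 µm section. After the column and row correction 2 of the 11 were called (median 0.11), and in pixels away from the edge 2 (0.25). When ranks were taken within transcript depth, 9 were called (0.29). In limma on pixel means none was called (0.24). The part of edge position, depth and mitochondrial share in the other differences was not tested beyond these rankings. Of 10 cell cycle genes and 11 tested genes of glycolysis and hypoxia none was called, with medians of -0.23 and -0.02.

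Transcripts of the genes behind the other antibodies did not all move with CD63. Besides Cd63, 6 such genes were tested. Itga4, the integrin alpha 4 chain, was at 39.9 against 31.1 CPM, 46.2 against 22.4 CPM, 102 against 28.3 CPM and 40.7 against 15.6 CPM, higher in each section (1.06, SE 0.25, edgeR adjusted p = 0.00393). Nrp1 was higher (0.63, SE 0.17, edgeR adjusted p = 0.0218) except in the 25 µm section, at 59.7 against 76.1 CPM. Its antibody share went the opposite way in each section, with ratios of 0.796, 0.916, 1.06 and 0.939 in the order of sections above. The KDR antibody had ratios of 1.19, 0.898, 0.773 and 0.943, while the Kdr transcript was lower only in the 25 µm section. The ITGA4 antibody had ratios of 0.983 to 1.437, below 1 in the 10 µm section alone. Antibody and transcript were not tested against each other. Notch1 was lower in each section (-0.76, SE 0.22, edgeR adjusted p = 0.0287), while its antibody share had ratios on both sides of 1. The call of Itga4 was lost without 50 µm section 2, the 25 µm or the 10 µm section, that of Nrp1 without 50 µm section 2 or the 10 µm section, and that of Notch1 when any section was left out. Kit and Esam were not called. Another 10 genes, Epcam among them, had too few counts to be tested.

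Each section was also set against the genes called without it. Of 305 genes called higher without 50 µm section 1, 82.6% were higher there too, against 43.8% of all genes compared. For 50 µm section 2 the share was 92.2%, for the 25 µm section 77.7% and for the 10 µm section 91.3%. Of the genes called lower without a section, 70.5%, 90.0%, 88.5% and 97.4% were lower in it, against 56.1% to 56.6% of all genes.

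**Figure D5:**
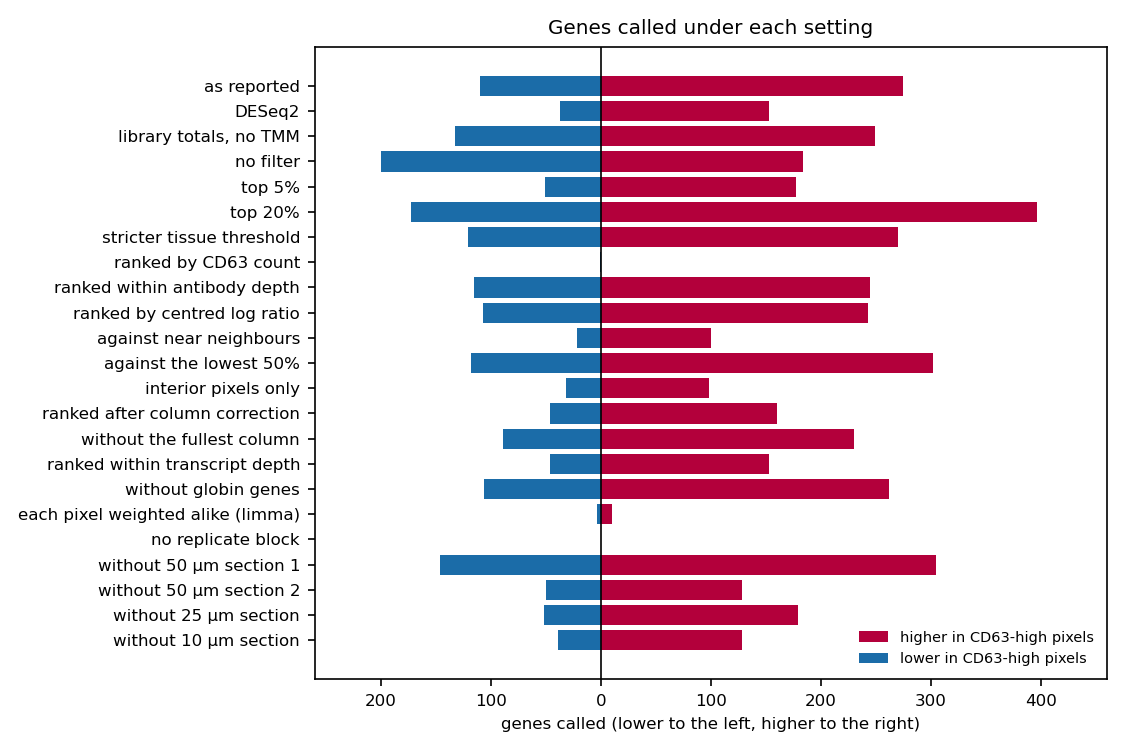
Bars give the number of genes called higher (right) and lower (left) in CD63-high pixels under each setting. The bar named column correction is for shares divided by column medians and then by row medians. The reported fit has 275 and 110; ranking by CD63 tag count leaves 0 and 1, leaving out the section block 0 and 0, and each of the other settings calls genes in both directions.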

How the data were processed

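Gene counts and antibody tag counts per pixel were the unit used. The authors deposited them as tables of counts per pixel, with no normalization that the values show. Per the submitters' processing notes, CASAVA 1.8.2 was used and the build listed is GRCh38, a human build; the aligner, the annotation, the use of strand and the collapsing of duplicate molecules are not given in the sources used here. Gene positions come from GENCODE M21 (GRCm38).

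Antibody and transcript libraries were paired by title stem. Tissue pixels had a total of at least 0.1 of the 95th percentile of their transcript library. Since pixels are not replicates, CD63-high and other pixels of each section were summed. The 8 sums were fitted with edgeR 4.0.16 (limma 3.58.1, R 4.3.3; quasi-likelihood test, robust, TMM factors, default filter on low counts by class, section as a block because both sums come from the same tissue, 3 residual degrees of freedom). Two-sided p-values received Benjamini-Hochberg adjustment over the 10392 tested genes and were called under 0.05. The fit was tested on simulated counts for 10130 genes, where 162 of 200 genes changed by a factor of 2 were recovered with 8 false calls. The changed genes had a mean of at least 20 CPM. All genes shared a single dispersion and each change was the same in every section. The simulation was thus simpler than the data, and its rates need not hold for them. A CPM is a count divided by the total of its sum and multiplied by 1e6. The genes named are the 12 with the largest change per direction among called genes with the same direction in all 4 sections and a mean of at least 20 CPM (predicted and pseudogene symbols left out), Cd63, genes of the antibodies and called genes of 29 lists; the 2 most abundant genes of a list are named only where the list is described, and 3 of the genes with the largest decreases are not reported here. Counts of tags or reads limit precision, and intervals cover counting error only. The pixels, the lists and the rule were chosen with earlier results of these data known. Alternatives included DESeq2 1.42.0.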

Additional observations from a re-analysis of the deposited data

Results flagged for a closer look

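Among 34 results examined for a section that stands apart, 2 had a section whose gap to the nearest of the other 3 was large for the range of the 4. Chance alone gives such a gap in about 1 of 20 results.

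Lrp2, an endocytic receptor of the neuroepithelium, had no count among the 117177 transcripts of the CD63-high pixels of the 25 µm section. Its log2 ratio of (CPM + 1) there was -4.615, but against a count of 0 the added 1 sets the size of this value and with it the gap to the other sections. A count of 0 at that depth allows up to 25.6 CPM, above the 23.5 CPM of the other pixels, so the value is neither a fold nor a sign that this section stands apart. The endothelial list had a log2 ratio of summed CPM of -0.04778 in the 25 µm section, against 0.57 to 0.65 in the other 3.

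The Cd63 transcript had a log2 ratio of -0.2224 in the 25 µm section and of 0.20 to 1.01 in the 50 µm and 10 µm sections. This difference between sections was not tested, and it rests on 10 counts.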

How the results depend on the processing

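Of 385 genes called, the alternatives called 228 (top 5% of pixels), 190 (DESeq2), 206 (ranked after the column and row correction) and 199 (ranked within transcript depth). Interior pixels gave 130 calls, near neighbours 122, limma with each pixel weighted alike 13 and ranking by CD63 tag count 1. In the same order, 201, 181, 163, 179, 124, 117, 12 and 0 of these calls were among the 385. Without the replicate block of section, 0 genes were called, 438 had an unadjusted p under 0.05 in edgeR's test, and Cd63 had a log2 fold change of 0.54 (adjusted p = 1.0). Leaving out 1 section in turn gave 167 to 451 calls (178 without 50 µm section 2, 231 without the 25 µm section), and for Cd63 0.38 to 0.71 (0.48 without 50 µm section 2). With no filter on low counts, 184 genes were higher and 200 lower. Cd63 was also not called with DESeq2 (0.53), no filter (0.44), the top 5% (0.52), CD63 tag count (0.032) or near neighbours (0.34). Nor was it called with interior pixels (0.54), the column and row correction (0.41), ranks within transcript depth (0.41) or limma (0.23). Its adjusted p over all alternatives ran from 0.000764 to 1.0.

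Directions that turned did so mostly when pixels were ranked by CD63 tag count. The log2 fold changes then were 0.056 (Emx2), 0.028 (Hes5), 0.13 (Nr2e1) and 0.13 (Tubb3), and -0.028 (Col2a1), -0.37 (Dcn), -0.19 (Des), -0.075 (Ets1), -0.035 (Gata6), -0.0018 (Kdr), -0.57 (Myh6), -0.13 (Nrp1), -0.041 (Pecam1), -0.40 (Prrx1), -0.17 (Tbx18), -0.14 (Tnni1) and -0.13 (mt-Nd5). Tnni1 was also at -0.19 with limma on pixel means. The cause was not tested. The column and row correction and ranks within transcript depth were chosen after seeing the data. So were the fits without the fullest column and without globin genes. Depth limits the 25 µm section most, with 117177 counts in CD63-high pixels.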
